A study of Homo sapiens with 4 samples.

Results

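The DEAD and DEAH box RNA helicases are a family of enzymes named DDX and DHX after the motif they carry. All genes of the expression table whose NCBI symbol starts with DDX or DHX and a number were taken, without regard to their values. There were 52 such genes, 36 DDX and 16 DHX, among 16658 genes in the table. Of these, 51 coded for protein and DDX11L17 was a transcribed pseudogene. RNA-seq of total RNA was done on cells labelled HepG2, an established human liver cancer cell line, untreated and grown to the same confluence in every group. The WT group had 2 libraries of the wild-type line. The ZCCHC4 KO1 group had 2 libraries of a single line in which ZCCHC4 had been knocked out by CRISPR/Cas9, so that differences particular to this line and differences due to the loss of ZCCHC4 cannot be told apart. ZCCHC4 is a zinc finger protein and an m6A methyltransferase of ribosomal RNA, and the question asked of the comparison was how the RNA level of each helicase differed between knockout and WT cells.

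DEAD and DEAH box helicases bind RNA and use ATP to unwind short duplexes or to strip proteins from RNA. Most are not sequence specific, and each is directed to its own step by partner proteins, such as the G-patch proteins of DEAH helicases and the MIF4G proteins of several DEAD helicases. In the nucleolus many of them drive the maturation of ribosomal RNA. Others remodel the spliceosome, load and release mRNA at the nuclear pore, assist translation or repress it, or sense viral RNA. EIF4A1, EIF4A2, EIF4A3 and RIGI encode related helicases under other names and are described apart.

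The stretch of coding sequence that encodes the name-giving box is shown for a few members that differ in base composition. Over the tested members, base composition moved with the spread between libraries described further on. The sequences are from GENCODE release 44 on GRCh38, written along the coding strand, and the capitals mark the 12 bases of the box. The exact box of the gene's own name was searched for in the translated Ensembl canonical transcript. It was accepted only where a further helicase motif, Ser, Thr or Gly followed by Ala-Thr, came shortly after it. Under that condition it was found in 32 of the 47 members tested below, and the other members need not lack the box. The first windows shown are those of DDX46 (chr5:134790493-134790540, plus strand), DDX18 (chr2:117822174-117822221, plus strand) and DDX5 (chr17:64503227-64503274, minus strand). The whole transcripts of these genes are poor in G and C. The next windows are those of DDX41 (chr5:177513724-177513771, minus strand), DHX37 (chr12:124971350-124971397, minus strand) and DHX38 (chr16:72104057-72104104, plus strand), whose whole transcripts are rich in them.
DDX46: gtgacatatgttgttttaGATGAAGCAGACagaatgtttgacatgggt
DDX18: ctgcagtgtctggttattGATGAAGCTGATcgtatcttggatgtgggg
DDX5: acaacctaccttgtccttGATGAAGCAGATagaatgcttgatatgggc
DDX41: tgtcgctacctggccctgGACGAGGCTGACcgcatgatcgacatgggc
DHX37: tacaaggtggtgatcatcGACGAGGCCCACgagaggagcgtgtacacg
DHX38: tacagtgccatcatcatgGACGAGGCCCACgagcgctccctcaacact
The box codons of DDX18 and DDX5 held 5 G or C of 12 bases, those of DDX46 held 6, those of DDX41 held 8, and those of DHX37 and DHX38 held 9. Over the whole coding sequence, G or C filled 37.0% of the last codon positions in DDX46, 41.0% in DDX18 and 35.8% in DDX5, against 74.4% in DDX41, 76.6% in DHX37 and 70.3% in DHX38. Across the tested members this share ran from 32.3% to 82.6% and followed the GC content of the whole transcript (Spearman's rho 0.914, n = 47 genes). The short window around the box need not follow it. In DDX54 the share was 80.1%, but the box held 6 G or C and the window was 47.9% GC, as in DDX18. The 2 windows below, of the neighbouring genes DDX19A (chr16:70366183-70366230, plus strand) and DDX19B (chr16:70329390-70329437, plus strand), are shown because they cannot be told apart.
DDX19A: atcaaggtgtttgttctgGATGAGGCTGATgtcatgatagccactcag
DDX19B: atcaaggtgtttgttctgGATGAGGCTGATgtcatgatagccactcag

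Values were FPKM, fragments scaled by exon length and by the mapped fragments of the library, so that levels could be compared between genes, but the depth of the libraries is unknown. The knocked-out gene, ZCCHC4 (Entrez 29063, chr4:25312774-25370383), stood at 7.22 and 5.44 FPKM in the WT libraries and at 1.08 and 2.29 FPKM in the ZCCHC4 KO1 libraries. Its log2 fold change was -1.48 (SE 0.287, limma adjusted p = 0.0448), and the groups did not overlap. Without ZCCHC4 KO1 replicate 1 the adjusted p was 0.0514. A frameshift can leave RNA in place, so this level does not measure the protein. Of 20 hepatocyte markers, 12 were listed, and FOXA1 and CPS1 reached 1 FPKM in every library. ALB, APOA1, APOB, APOC3, APOH, TTR, TF and FOXA2 had no row in the table, and the reason is not given in the sources used here. The 12 summed to 280.60 and 249.79 FPKM in WT against 132.11 and 184.46 FPKM in ZCCHC4 KO1, nearly all of it from CPS1, and AFP, SERPINA1 and HNF4A lay between 0.00 and 0.08 FPKM. Most of the hepatocyte markers listed were thus at or near 0, against the HepG2 label. Of 6 markers of simple and biliary epithelium, the keratins KRT8, KRT18 and KRT7 were at 1294.42 to 3601.92 FPKM. KRT19, SOX9 and EPCAM of that list lay between 0.00 and 0.11 FPKM. Among the fibroblast markers, 4 of 7 reached 1 FPKM in both libraries of each group. The 6 fibroblast markers in the table summed to 27.43 and 26.16 FPKM in WT and 11.20 and 14.06 FPKM in ZCCHC4 KO1. No immune or endothelial marker did so. The part of these differences in the results below was not tested, and in bulk RNA fewer cells of a type and less RNA per cell cannot be told apart. The labels do not say whether the 2 libraries of a group came from separate cultures, so that the p-values measure the spread between these libraries, which may be technical.

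Nearly the whole family was expressed. Of the 52 genes, 47 reached 1 FPKM in at least 2 libraries and were tested, 32 DDX and 15 DHX, with a median WT level of 23.6 FPKM against 11.1 FPKM over all 10726 genes tested. The 3 most abundant were DDX39B, DDX5 and DDX39A. DDX39B, which loads export factors onto spliced mRNA (Entrez 7919, chr6:31530226-31542003), stood at 151.46 and 156.22 FPKM in WT and 163.06 and 150.21 FPKM in ZCCHC4 KO1. DDX5, a coactivator of transcription and processing factor (Entrez 1655, chr17:64498254-64506866), stood at 154.48 and 141.90 FPKM in WT and 123.73 and 159.28 FPKM in ZCCHC4 KO1. DDX39A, the close relative of DDX39B (Entrez 10212, chr19:14408798-14419383), stood at 135.87 and 149.01 FPKM in WT and 184.36 and 136.53 FPKM in ZCCHC4 KO1. For each of these abundant helicases the groups overlapped, and the log2 fold changes were 0.02 (SE 0.126), -0.08 (SE 0.164) and 0.16 (SE 0.179), with limma adjusted p from 0.671 to 0.938. All exons of DDX39B are also exons of a readthrough transcript with its neighbour ATP6V1G2, so that its value may include that transcript.

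The genes under the threshold were DDX60 at 0.11 to 0.27 FPKM and DHX58 at 0.08 to 0.14 FPKM, which act in the sensing of viral RNA, DDX43 at 0.00 to 0.04 FPKM and DDX53 at 0.02 to 0.29 FPKM, which are known from germ cells and tumours, and DDX11L17 at 0.32 to 0.64 FPKM. DDX60L, the neighbour of DDX60, was tested but lay near the threshold, at 1.16 and 0.59 FPKM in WT and 0.49 and 1.17 FPKM in ZCCHC4 KO1, with overlapping groups.

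**Figure D1:**
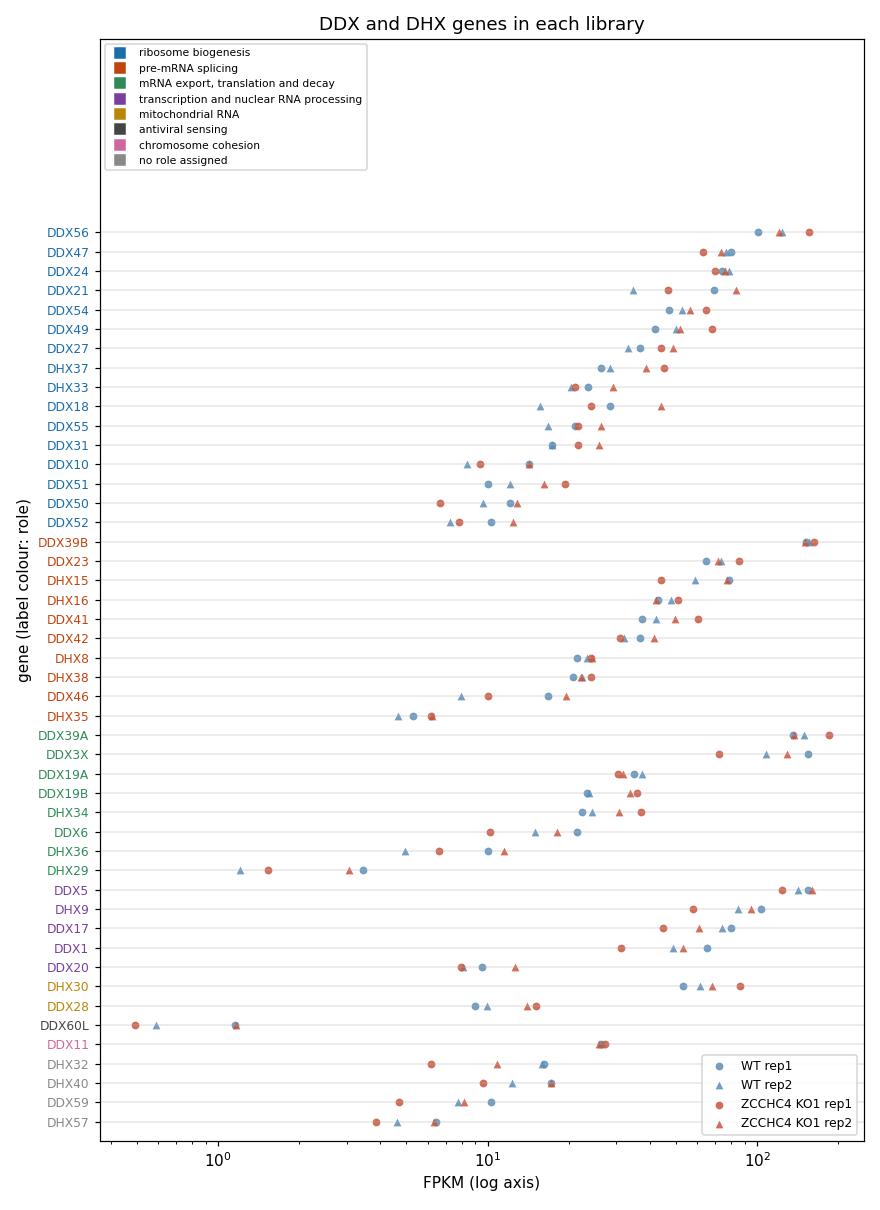
FPKM (log axis) of the 47 tested DDX and DHX genes in each of the 4 libraries, grouped by role (label colour) and ordered by WT level, with blue for WT, red for ZCCHC4 KO1, circles for replicate 1 and triangles for replicate 2. For many genes WT replicate 1 sits close to ZCCHC4 KO1 replicate 2 and WT replicate 2 close to ZCCHC4 KO1 replicate 1, and DHX29 and DDX60L are the lowest genes shown.

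No DDX or DHX gene passed FDR below 0.05 in the comparison of ZCCHC4 KO1 with WT, while 1.50% of all tested genes were called higher and 4.48% lower by limma. None passed the stricter rule of FDR below 0.001 with at least a 2-fold change either, which 8 genes (0.0746%) passed. At an unadjusted p below 0.05 there were 11 members, 9 higher and 2 lower of the 47 tested, while 8.96% of all genes were higher and 13.9% lower at that level. The smallest adjusted p was 0.0806, for DHX37. The summed level of the 47 genes was 2046.9 and 1913.3 FPKM in WT and 1985.0 and 2161.6 FPKM in ZCCHC4 KO1, so that the groups overlapped in this sum. Without ZCCHC4 KO1 replicate 2 the count of calls went from 0 to 5 higher and 5 lower, or 10.6% of members each, but that fit also called more of the whole table, 5.20% of all genes higher and 9.67% lower.

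Differences that did not pass the test were more often upward. Both ZCCHC4 KO1 libraries lay above both WT libraries for 14 of the 47 genes (29.8%) and below both for 4 (8.51%), whereas over all tested genes the shares were 23.1% and 28.5%. The log2 fold change was above 0 for 31 members (66.0%) against 46.8% of all genes, and its median was 0.11 against -0.03. It ran from -0.89 for DHX32 to 0.64 for DDX51, with a median standard error of 0.185. The median was 0.16 for DDX genes and 0.10 for DHX genes. These counts describe the family and were not tested, since its genes are not independent replicates of a condition. Without ZCCHC4 KO1 replicate 2 the median was -0.07 for members and -0.13 for all genes, so in this fit the sign of the family median rested on that library. With the GC trend removed as well, as described further on, these medians were 0.04 and -0.10.

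The helicases of ribosome biogenesis, which act on pre-ribosomal RNA in the nucleolus, were the most numerous group. Of these 16, 13 (81.2%) had a log2 fold change above 0, against 46.8% of all tested genes, and their median was 0.31. Their summed level was 613.6 and 584.4 FPKM in WT and 688.8 and 730.0 FPKM in ZCCHC4 KO1, higher in both knockout libraries. Both knockout libraries were above WT for DDX27, DDX31, DDX49, DDX51, DDX54, DDX55 and DHX37 (43.8%), and below WT for DDX47 (6.25%). Over all tested genes the shares were 23.1% and 28.5%. None of the 16 was called.

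DDX51, which acts in maturation of the large subunit RNA (Entrez 317781, chr12:132136594-132144319), stood at 10.07 and 12.10 FPKM in WT and 19.41 and 16.14 FPKM in ZCCHC4 KO1. The mean was 1.60 times that of WT, with a log2 fold change of 0.64 (SE 0.188, limma adjusted p = 0.116). DHX37, a helicase of small subunit assembly (Entrez 57647, chr12:124946826-124989131), stood at 26.37 and 28.39 FPKM in WT and 45.11 and 38.81 FPKM in ZCCHC4 KO1. Its mean was 1.53 times that of WT, with a log2 fold change of 0.60 (SE 0.148, limma adjusted p = 0.0806). Both genes are rich in G and C, and in both the WT libraries were close together and clear of the knockout libraries. DDX27, a nucleolar helicase of large subunit maturation, was at 36.84 and 33.10 FPKM in WT and 44.09 and 48.75 FPKM in ZCCHC4 KO1. DDX31, a nucleolar relative, was at 17.29 and 17.39 FPKM in WT and 21.70 and 25.92 FPKM in ZCCHC4 KO1. Of both, the knockout values were above WT, with log2 fold changes of 0.40 (SE 0.141) and 0.43 (SE 0.161) and limma adjusted p of 0.168 and 0.189.

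Some differences between means in this group lay within the spread of replicates in the deposited values. DDX18, a helicase of large subunit assembly, was at 28.36 and 15.61 FPKM in WT and 24.27 and 44.01 FPKM in ZCCHC4 KO1, so that its mean was 1.55 times that of WT while the groups overlapped (log2 fold change 0.61, SE 0.370, limma adjusted p = 0.398). DDX21, which couples transcription by RNA polymerase I with rRNA processing, was at 69.34 and 34.61 FPKM in WT and 46.85 and 83.30 FPKM in ZCCHC4 KO1 and likewise overlapped. DDX50, its close relative and neighbour on chromosome 10, was at 12.06 and 9.64 FPKM in WT and 6.65 and 12.83 FPKM in ZCCHC4 KO1. In all of these the highest library was ZCCHC4 KO1 replicate 2. With the GC trend of each library removed, as described further on, DDX18 had a log2 fold change of 0.69 (limma adjusted p = 0.0557). Over 20 settings of the fit, which reuse the same 4 libraries, DDX18 was above 0 in every setting and DDX21 in 18. Both were called only in some settings that removed the GC trend or used the crossed pairing described further on. DDX56, the most abundant of the group at 101.05 and 123.20 FPKM in WT, reached 155.68 and 120.58 FPKM in ZCCHC4 KO1.

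DDX47, a helicase of early rRNA processing (Entrez 51202, chr12:12813346-12829981), was the member of this group with both knockout libraries below WT, at 79.71 and 76.36 FPKM in WT and 62.86 and 73.15 FPKM in ZCCHC4 KO1. The log2 fold change was -0.20 (SE 0.138, limma adjusted p = 0.462). In the annotation 99.7% of its exon bases also belong to APOLD1 transcripts on the same strand, so that reads of the 2 genes cannot be fully told apart.

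Helicases of pre-mRNA splicing, which remodel the spliceosome at successive steps, had log2 fold changes above 0 in 9 of 10 genes, against 46.8% of all tested genes. Their median was 0.11 and none was called. Both knockout libraries were above WT for DDX41, DHX8 and DHX35, or 30% of the group against 23.1% of all tested genes. DDX41, a spliceosomal helicase also known as a tumour suppressor of myeloid leukaemia (Entrez 51428, chr5:177511577-177516961), was at 37.47 and 41.96 FPKM in WT and 60.26 and 49.57 FPKM in ZCCHC4 KO1. Its log2 fold change was 0.45 (SE 0.157, limma adjusted p = 0.160). DHX16, DHX38, DHX8 and DHX15, DEAH helicases of successive spliceosome steps, differed from WT by less than their standard errors. DHX16, which acts at activation of the spliceosome, had a log2 fold change of 0.03 (SE 0.154). DHX38, which acts before the second splicing step, had 0.10 (SE 0.148). DHX8, which releases the spliced mRNA, had 0.11 (SE 0.144), and DHX15, which takes the intron lariat complex apart, had -0.21 (SE 0.292). DDX46, the ATPase of branch point recognition, was at 16.82 and 7.94 FPKM in WT and 10.03 and 19.56 FPKM in ZCCHC4 KO1, and each group spanned more than the difference between their means.

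Among the 8 helicases of mRNA export, translation and decay, 5 (62.5%) had log2 fold changes above 0, against 46.8% of all tested genes. None was called. DHX34, which takes part in nonsense-mediated decay (Entrez 9704, chr19:47349315-47382704), was at 22.30 and 24.31 FPKM in WT and 37.02 and 30.64 FPKM in ZCCHC4 KO1, with both knockout libraries above WT (log2 fold change 0.51, SE 0.160, limma adjusted p = 0.130). DDX3X, a helicase of translation initiation, was at 153.92 and 107.98 FPKM in WT and 72.46 and 129.46 FPKM in ZCCHC4 KO1. DDX6, the helicase of mRNA decapping and P-bodies, was at 21.47 and 14.94 FPKM in WT and 10.20 and 18.07 FPKM in ZCCHC4 KO1. In both the lowest library was ZCCHC4 KO1 replicate 1, and its replicate lay within the WT range. DHX29 and DHX36, which act in translation initiation on structured mRNA and in G-quadruplex unwinding, were at 1.21 to 3.45 FPKM and 4.93 to 11.49 FPKM over the 4 libraries, with overlapping groups.

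DDX19A and DDX19B, paralogs that release export factors at the nuclear pore, differed from WT in opposite directions without passing the test. DDX19B (Entrez 11269, chr16:70289767-70335305) was at 23.32 and 23.79 FPKM in WT and 35.86 and 33.68 FPKM in ZCCHC4 KO1, a log2 fold change of 0.54 (SE 0.137, limma adjusted p = 0.0834). DDX19A (Entrez 55308, chr16:70346903-70373383) was at 34.85 and 37.48 FPKM in WT and 30.46 and 31.85 FPKM in ZCCHC4 KO1, a log2 fold change of -0.21 (SE 0.136, limma adjusted p = 0.435). The knockout libraries did not overlap WT in either gene, and neither was called. Their sum was 58.17 and 61.27 FPKM in WT and 66.32 and 65.53 FPKM in ZCCHC4 KO1, whereas the share of DDX19B in that sum went from 40.1% and 38.8% to 54.1% and 51.4%. As the identical windows printed above show, the genes share long stretches: 24.6% of all 50-base windows of DDX19A and 21.9% of those of DDX19B occur in the other. A readthrough gene spans both as well, and the division of reads between these 3 features by RSEM is uncertain.

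**Figure D2:**
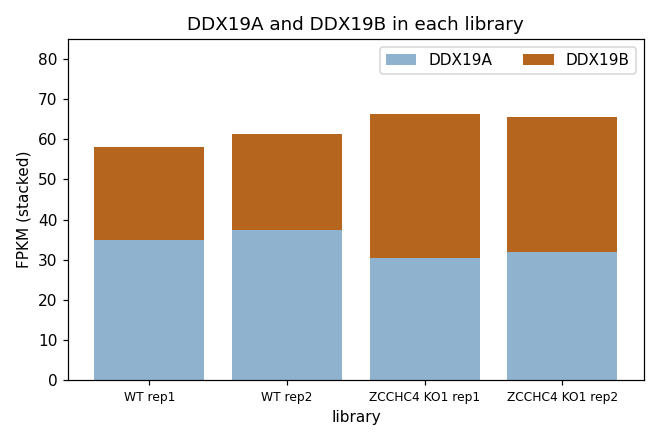
FPKM of DDX19A (blue) and DDX19B (brown) stacked for each of the 4 libraries, with no error bars because each bar is 1 library. The stacks run from 58.17 to 66.32 FPKM, and the DDX19B part is larger in both ZCCHC4 KO1 libraries.

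Of the 5 helicases of transcription and nuclear RNA processing 4 had a log2 fold change below 0, against 5708 of all 10726 tested genes. None was called. Their median was -0.34, and their median GC content was 42.1% against 48.7% over all tested genes. With the GC trend removed, as described further on, 3 of the 5 were below 0. DDX17, the paralog of DDX5 and its partner in transcription and microRNA processing (Entrez 10521, chr22:38483438-38506311), was at 80.07 and 74.02 FPKM in WT and 44.87 and 61.09 FPKM in ZCCHC4 KO1. Both knockout libraries were below WT, with a log2 fold change of -0.55 (SE 0.180, limma adjusted p = 0.146). DDX1 was at 64.92 and 48.58 FPKM in WT and 31.26 and 53.00 FPKM in ZCCHC4 KO1. DHX9, a nuclear helicase of RNA and DNA hybrids and structured repeats, was at 103.07 and 85.05 FPKM in WT and 57.75 and 94.62 FPKM in ZCCHC4 KO1. Of DDX1 and DHX9, replicate 1 of the knockout was below WT and replicate 2 within the WT range.

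Both helicases of mitochondrial RNA were higher in both knockout libraries, as were 23.1% of all tested genes. DDX28, which acts in assembly of the mitochondrial ribosome (Entrez 55794, chr16:68020916-68023232), was at 9.0 and 9.97 FPKM in WT and 15.12 and 13.99 FPKM in ZCCHC4 KO1, a log2 fold change of 0.57 (SE 0.171, limma adjusted p = 0.120). DHX30, which binds mitochondrial transcripts, was at 53.16 and 61.24 FPKM in WT and 86.18 and 67.96 FPKM in ZCCHC4 KO1, a log2 fold change of 0.42 (SE 0.168, limma adjusted p = 0.216). DDX11, a DNA helicase of sister chromatid cohesion with the DDX name, was at 26.24 and 26.43 FPKM in WT and 27.17 and 25.85 FPKM in ZCCHC4 KO1, and 33.5% of its 50-base windows occur in DDX12B.

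The 4 members to which no role was assigned, DDX59, DHX32, DHX40 and DHX57, all had log2 fold changes below 0, as had 5708 of all 10726 tested genes. Their median GC content was 41.7%, against 48.7% over all tested genes. The groups overlapped for DDX59, DHX40 and DHX57. Over 20 settings of the fit DHX40 was above 0 in 5 and DHX57 in 6, and with the GC trend removed DHX57 was at -0.003. DHX32 (Entrez 55760, chr10:125836337-125896485), a divergent DEAH family protein, had the lowest fold change of the family, at 16.22 and 15.87 FPKM in WT and 6.18 and 10.80 FPKM in ZCCHC4 KO1. Its mean was 0.529 times that of WT and its log2 fold change -0.89 (SE 0.267, limma adjusted p = 0.120). The WT libraries were close to each other, and both knockout libraries lay well below them. Of its exon bases 13.3% overlap BCCIP on the opposite strand, and whether the counting used strand is not given in the sources used here.

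**Figure D3:**
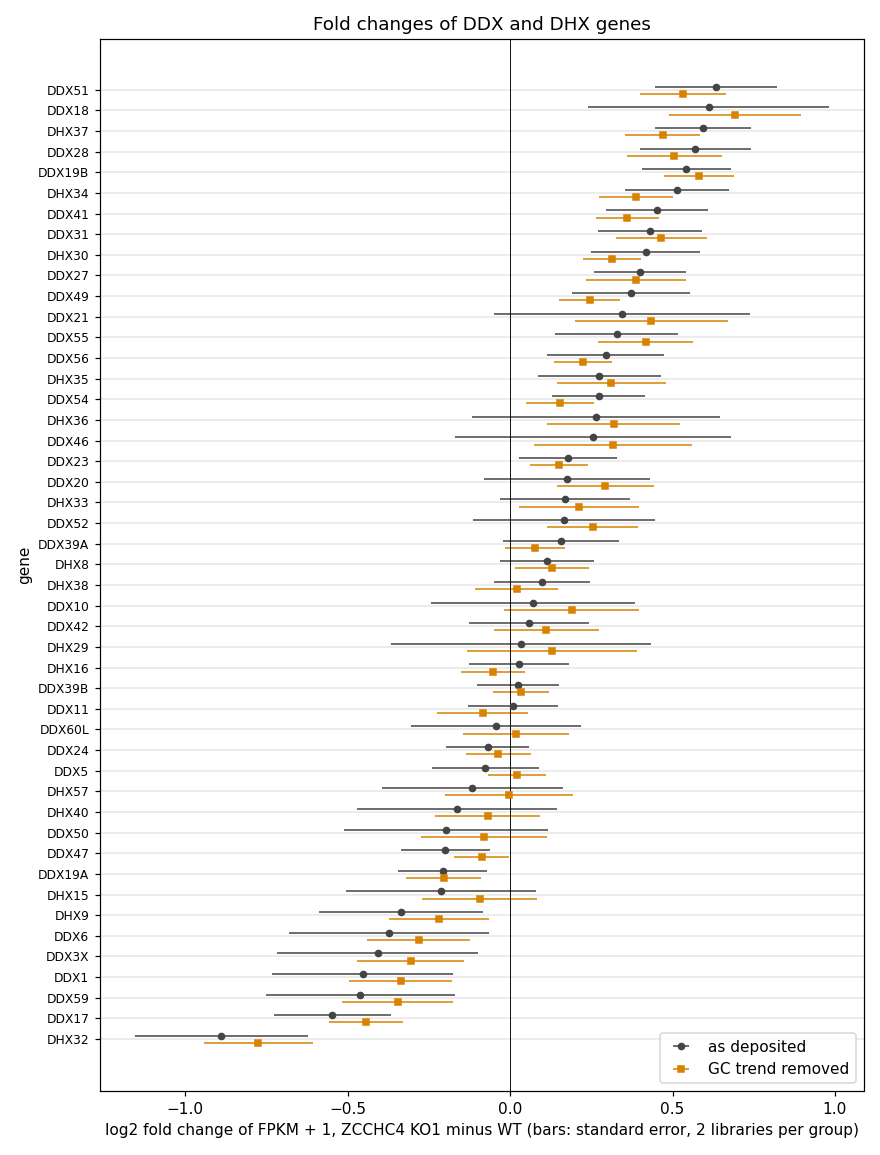
Log2 fold change of FPKM + 1 in ZCCHC4 KO1 against WT for each of the 47 tested genes, with bars for the standard error (2 libraries per group), from the deposited values (dark circles) and with the GC trend of each library removed (orange squares). Most bars are shorter once the trend is removed, and DHX32 at -0.89 and DDX51 at 0.64 mark the ends.

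The spread between replicates of the helicases followed base composition. The GC content of the members' transcripts ran from 38.4% in DHX36 to 61.6% in DDX49. Across the 47 genes it was correlated with the difference between replicate 2 and replicate 1 in WT (Spearman's rho 0.897) and in the opposite sense in ZCCHC4 KO1 (rho -0.900). Over all tested genes with a GC value the same correlations were 0.725 and -0.784. The genes share the same 4 libraries, so these are descriptions of the libraries without a p-value.

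All 21 members with a GC content below 45% were lower in WT replicate 2 than in WT replicate 1 and lower in ZCCHC4 KO1 replicate 1 than in ZCCHC4 KO1 replicate 2, and all 13 members of at least 55% were the other way round in both groups. DDX46, with 38.7% GC, was at 16.82 and 7.94 FPKM in the WT replicates, whereas DHX38, with 56.5% GC, was at 20.79 and 22.40 FPKM. Between the groups, the libraries overlapped for 19 of the 21 members low in GC and for 5 of the 13 rich in GC. The median standard error was 0.292 for the former and 0.160 for the latter. The median log2 fold change was -0.12 in members low in GC, 0.17 in the 13 between 45% and 55%, and 0.37 in those rich in GC. Across all members GC content was thus correlated with the fold changes as well (rho 0.438, against 0.189 for all genes). Within the classes it was not so throughout, with rho -0.504 in the 21 members low in GC, 0.033 in the 13 between and 0.335 in the 13 rich in GC. The part of GC content in the group differences was not tested.

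**Figure D4:**
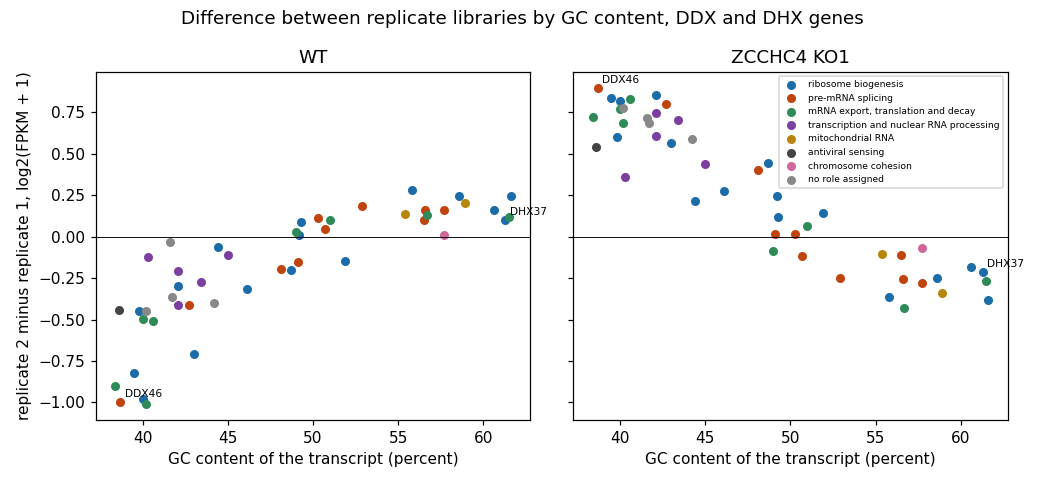
Difference between replicate 2 and replicate 1 in log2(FPKM + 1) for each tested DDX and DHX gene against the GC content of its transcript in percent, in WT (left) and in ZCCHC4 KO1 (right), with points coloured by role. Points climb from left to right in WT and descend in ZCCHC4 KO1, from DDX46 at the AT-rich end to DHX37 at the GC-rich end.

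When a smooth trend with GC content was removed from each library before the fit, the helicases' errors fell and 6 of them passed FDR below 0.05. Over all genes this fit called 7.07% higher and 13.0% lower, so 4 higher members of 47 were near the background and 2 lower members below it. The fit also removes any difference between the groups that itself follows GC content. DDX19B rose by 0.58 on the log2 scale (limma adjusted p = 0.0118), DDX51 by 0.53 (limma adjusted p = 0.0332), DHX37 by 0.47 (limma adjusted p = 0.0307) and DDX41 by 0.36 (limma adjusted p = 0.0432). DHX32 fell by 0.78 (limma adjusted p = 0.0203) and DDX17 fell by 0.44 (limma adjusted p = 0.0364). Each of these 6 had non-overlapping groups in the deposited values. As they were called from the same 4 libraries, this is no further support. Over all tested genes 23.1% had both knockout libraries above WT and 28.5% both below. The role groups then had medians of 0.25 for ribosome biogenesis, 0.12 for splicing, 0.10 for export, translation and decay, 0.41 for mitochondrial RNA and -0.22 for transcription and nuclear processing. In the same order, their median GC content was 48.9%, 50.5%, 44.8%, 57.1% and 42.1%. The calls of DDX51 (limma adjusted p from 0.0823 to 0.184) and DDX41 (limma adjusted p from 0.0834 to 0.315) were lost whichever library was left out. DHX37 was called only without ZCCHC4 KO1 replicate 1 (limma adjusted p = 0.0437) and DDX17 only without ZCCHC4 KO1 replicate 2 (limma adjusted p = 0.00895), while DDX19B was lost without WT replicate 2 (limma adjusted p = 0.0658) and DHX32 without ZCCHC4 KO1 replicate 1 (limma adjusted p = 0.0569). With a replicate block in this fit DDX51, DDX41 and DHX37 were lost as well (limma adjusted p = 0.168, 0.180 and 0.0798). When single libraries were left out, 0 to 5 members were called higher and 0 to 5 lower. Without ZCCHC4 KO1 replicate 2, 1 was called higher (DDX19B) and 5 lower (DDX1, DDX3X, DDX17, DHX9 and DHX32), against 5.84% and 14.0% of all genes.

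The members were also set beside the genes around them on the chromosome. For 32 of 47 members the log2 fold change had the sign of the median of the 20 nearest tested genes, and the values were correlated across members (Spearman's rho 0.538, n = 47 genes, which share the 4 libraries). DDX18 lay among genes of higher level, 18 of the 20 nearest being above 0 with a median of 0.42, and had itself 0.61. DDX3X lay among genes of lower level, 19 of 20 being below 0 with a median of -0.48, and had itself -0.41. For DHX34, 18 of 20 neighbours were above 0 with a median of 0.23. In contrast, DHX37 had a median of -0.06 around it, DHX32 one of -0.03, DDX19B one of 0.05 and DDX28 one of 0.09, all far from their own values. DDX17 had -0.18 and DDX51 had 0.16. All of these values are from the fit without removal of the GC trend. With the trend removed, the medians of the neighbours were 0.35 for DDX18, -0.44 for DDX3X, 0.10 for DHX34 and -0.29 for DDX17. They were 0.004 for DHX37, 0.04 for DHX32, 0.07 for DDX19B, 0.02 for DDX28 and 0.14 for DDX51. The part of the neighbourhood in the members' values was not tested, nor was that of GC content shared by neighbours.

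**Figure D5:**
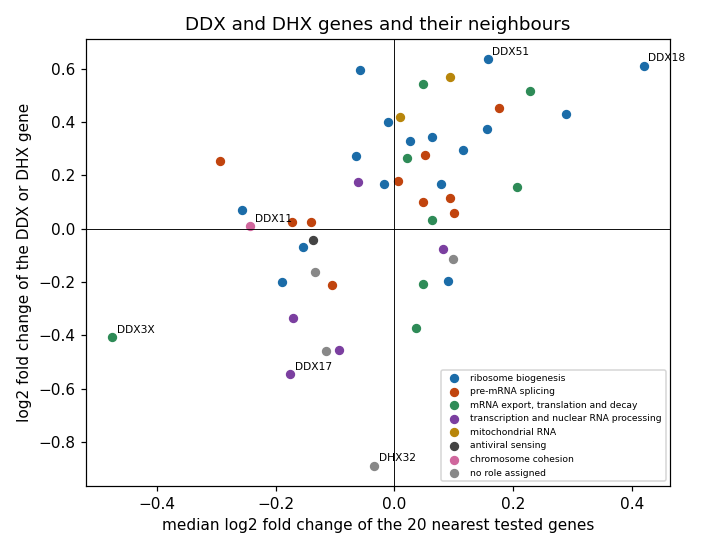
Log2 fold change of each tested DDX and DHX gene against the median log2 fold change of its 20 nearest tested genes, coloured by role. DDX18 at the upper right and DDX3X at the lower left lie with their neighbours, whereas DHX32 lies far below genes around it that are near 0.

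RNA helicases outside the DDX and DHX names were looked at in the same fit. Of 24 listed genes 23 were in the table and 17 were tested. Of these, 12 (70.6%) had a log2 fold change above 0, against 46.8% of all tested genes. Their median was 0.19, and none was called. EIF4A1, the helicase of cap-dependent translation, was far more abundant than any DDX or DHX gene, at 1061.72 and 1203.52 FPKM in WT and 1351.65 and 1262.19 FPKM in ZCCHC4 KO1. UPF1, the central helicase of nonsense-mediated decay, was at 28.86 and 33.11 FPKM in WT and 48.39 and 43.24 FPKM in ZCCHC4 KO1 (log2 fold change 0.55, SE 0.148, limma adjusted p = 0.0948). EIF4A3, the helicase of the exon junction complex, was at 146.06 and 169.08 FPKM in WT and 219.03 and 188.78 FPKM in ZCCHC4 KO1 (log2 fold change 0.37, SE 0.149, limma adjusted p = 0.217). With the GC trend removed both were called higher, by 0.43 and 0.40 on the log2 scale (limma adjusted p = 0.0379 and 0.0262). No other of the 17 was called, and that fit called 7.07% of all genes higher and 13.0% lower. RIGI and IFIH1, the cytoplasmic sensors of viral RNA, were at 0.27 to 0.60 FPKM and untested, like the sensors DDX60 and DHX58.

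Among 36 partner proteins of these helicases, all tested, 18 had log2 fold changes above 0 and 18 below, the median was 0.04 and none was called. Once the GC trend was removed, 4 of the 36 were called higher and 2 lower, where 7.07% and 13.0% of all genes were called. GPKOW, a G-patch partner of DHX16, was at 35.42 and 39.44 FPKM in WT and 24.34 and 19.93 FPKM in ZCCHC4 KO1, and fell by 0.82 on the log2 scale in that fit (limma adjusted p = 0.00396). GEMIN4, which joins DDX20 in the SMN complex, was at 40.69 and 44.14 FPKM in WT and 68.18 and 60.27 FPKM in ZCCHC4 KO1 and rose by 0.52 (limma adjusted p = 0.0144). CASC3, a core partner of EIF4A3, was at 47.04 and 49.09 FPKM in WT and 69.35 and 64.96 FPKM in ZCCHC4 KO1 and rose by 0.48 (limma adjusted p = 0.0156). SUGP1, a G-patch protein of the spliceosome, was at 16.23 and 19.69 FPKM in WT and 30.56 and 25.52 FPKM in ZCCHC4 KO1 and rose by 0.53 (limma adjusted p = 0.0216). The groups did not overlap for any of these 4 genes, which were picked by their p-values from the same libraries, so this is no further support.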

How the data were processed

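Total RNA of 2 WT and 2 ZCCHC4 KO1 libraries labelled HepG2 was sequenced at the Beijing Genomics Institute. The labels name an Illumina HiSeq and the study's methods a BGISEQ platform. The authors aligned reads to GRCh38 with Bowtie2 and deposited FPKM values from RSEM. Annotation, versions and strand setting are not given in the sources used here. FPKM are not counts, so depth and counting error are unknown. Entrez identifiers were matched to RefSeq symbols (16384 of 16658).

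Genes reaching FPKM 1 in at least 2 libraries were tested with limma 3.58.1 in R 4.3.3 (lmFit, eBayes with trend) on log2(FPKM + 1), which understates fold changes of low genes, with two-sided p-values adjusted by Benjamini-Hochberg over 10726 genes. The threshold was FDR 0.05. The GC trend was removed per library by a spline of 4 degrees of freedom on the GC content of the Ensembl canonical GENCODE 44 transcript, known for 98.4% of tested genes. The fitting code was run on simulated data with errors drawn independently for each gene and library, which checked the recovery of set fold changes. Errors shared between genes, such as those that follow GC content, were not simulated. In full were named ZCCHC4, called members, the 6 largest rises and falls with non-overlapping groups (4 falls existed), the 3 most abundant members and up to 4 called genes of each further list; other members were added after their values were seen. Members, role lists and tests were chosen with earlier results of these data known. Of coding symbols that fit the rule, DDX4, DDX25 and DDX3Y were not analysed here. In 19 alternatives, of which 6 were added after seeing the data, 1 choice or a named pair of choices was changed.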

Additional observations from a re-analysis of the deposited data

How the results depend on the processing

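Beside the fit reported above, 0 members were called with a pseudocount of 0.1, without the filter, with a minimum FPKM of 5, without a trend in the variance or with a replicate block. Median-ratio scaling called 0 higher and 1 lower (DHX32) and moved the members' median log2 fold change to 0.19 and that of all genes from -0.03 to 0.04. Quantile normalization called 1 higher (DHX37). Over all genes, 346 were called higher and 664 lower with the former and 466 and 721 with the latter, against 161 and 480 reported. Leaving out 1 library in turn, with the lone library of that group assumed to vary like the others, called 0 to 5 members higher and 0 to 5 lower, and the members' median ran from -0.065 to 0.225. The calls were all without ZCCHC4 KO1 replicate 2, 5 higher (DDX41, DDX51, DHX30, DHX34 and DHX37) and 5 lower (DDX1, DDX3X, DDX17, DHX9 and DHX32), where the median was -0.065 and 5.20% of all genes were called higher and 9.67% lower.

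Removal of the GC trend called 4 higher and 2 lower members, and with median-ratio scaling 10 higher and 2 lower, where the median was 0.20 and 11.6% and 13.4% of all genes were called. With the GC trend removed and 1 library left out, 0 to 5 were higher and 0 to 5 lower, with medians from 0.035 to 0.198, being 0.039 without ZCCHC4 KO1 replicate 2. The cause of these shifts was not tested. The labels number the replicates, but nothing says that equal numbers share a batch, and the deviations of equally numbered libraries from their group means were correlated at -0.79 across all tested genes. The replicate block left 4 members at an unadjusted p below 0.05 against 11 without it. The replicate block with the GC trend removed called 3 higher and 2 lower (4.80% and 9.69% of all genes), losing DDX41, DDX51 and DHX37 and gaining DDX18 and DDX21. The crossed pairing, added after seeing the data, blocked WT replicate 1 with ZCCHC4 KO1 replicate 2 and WT replicate 2 with ZCCHC4 KO1 replicate 1. These pairs were chosen because they deviated alike, so the calls of this fit cannot be taken as a test. It called 15 higher and 7 lower, or 31.9% and 14.9% of members against 21.5% and 27.8% of all genes.

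Of the 36 helicase partners, 0 were called in the main comparison and 2 with quantile normalization. Removal of the GC trend called 6 of them, or 4 with the replicate block and 8 with median-ratio scaling. The crossed pairing called 15. Of the 17 other RNA helicases tested, the counts under the last 4 of these settings were 2, 1, 3 and 6. Each of these alternatives also called more of the whole table than the main comparison, which called 1.50% higher and 4.48% lower. Quantile normalization called 4.34% of all genes higher and 6.72% lower. For the last 4 settings the shares were 7.07% and 13.0%, 4.80% and 9.69%, 11.6% and 13.4%, and 21.5% and 27.8%. The counts are therefore to be read against these shares.

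The log2 fold change of 17 members stayed above 0 and that of 6 below 0 in all 20 settings, and 24 members had both signs. Among the genes described in full, single libraries left out moved DDX39A from -0.059 to 0.371 and DDX39B from -0.034 to 0.084, both lowest without ZCCHC4 KO1 replicate 1, and DDX39B was at -0.020 without WT replicate 2 after removal of the GC trend. Median-ratio scaling put DDX5 at 0.001, and GC removal put it at 0.021, with or without the replicate block, while both together put it at 0.101. Without single libraries DDX5 ran from -0.257 to 0.105, and after GC removal it was at 0.104 without WT replicate 2, 0.023 without ZCCHC4 KO1 replicate 1 and 0.018 without ZCCHC4 KO1 replicate 2. ZCCHC4 stayed lower throughout, with adjusted p above 0.05 at a pseudocount of 0.1 (0.0551), without the filter (0.115) and without ZCCHC4 KO1 replicate 1 (0.0514).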
